A study of Homo sapiens with 6 samples.

Results

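The 9 genes described here store retinoids, make retinoic acid, answer to it, or build and coat lipid droplets. They were chosen by name, as LRAT, ALDH1A3, RARA, RARB, RARG, RXRA, DGAT1, PLIN2 and PLIN3. All 9 were among the 24789 genes and loci with values in the table. Measured values are not part of the rule, but the genes were chosen with earlier results of these data known. RNA was sequenced from LX-2, an established and immortalised line of human hepatic stellate cells that keeps features of the activated state. Cells received 50 nM of AEBP1 siRNA or 50 nM of scrambled siRNA by lipid transfection and were collected after 48 hours, with 3 libraries in each group. All 6 libraries thus come from 1 line given an siRNA and a transfection reagent, and no untransfected cells are among them. No label says that the libraries are from separate cultures, and the p-values below are thus set against a spread that may be technical.

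In healthy liver, quiescent stellate cells hold most of the body's vitamin A as retinyl esters in lipid droplets. LRAT makes these esters from retinol, DGAT1 makes the triglyceride that lies beside them, and perilipins coat the droplet. Retinol that is oxidised to retinal and then to retinoic acid becomes a ligand for nuclear receptors, the RARs, which bind DNA together with an RXR. Stellate cells lose their droplets when they are activated by injury.

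Sequences bear on RARB and on the likeness of the 3 RARs. The first is from RARB, the receptor whose own gene is a textbook target of retinoic acid. Receptor half-sites were searched on both strands in their common spelling AGGTCA and in the further spellings AGTTCA as well as GGTTCA and also GGGTCA. Any pair of these with 5 letters between was counted as a direct repeat. RefSeq windows from 250 bases before to 50 bases after a start matched 8 of the 9 genes, at 14 starts. A repeat lay in 1 of these 14 windows, at a start of RARB, and in 31 of 35116 windows of all genes (0.0883%). The spellings and the spacing set for the search include those of this RARB repeat. The match at RARB is thus no test, and the share over all windows is background only. Single half-sites were in 6 of the 14 windows and in 38.6% of all windows. The stretch before that start on build GRCh38.p14 is chr3:25428013-25428262, plus strand, and the 2 half-sites of the repeat are in capitals. A further match, GGGTCA, lies outside the repeat and is left in lower case.
RARB: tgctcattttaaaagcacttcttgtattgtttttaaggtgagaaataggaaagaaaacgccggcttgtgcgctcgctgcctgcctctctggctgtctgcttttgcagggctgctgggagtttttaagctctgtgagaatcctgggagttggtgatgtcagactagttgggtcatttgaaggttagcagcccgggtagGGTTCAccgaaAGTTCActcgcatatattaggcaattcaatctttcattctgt
The repeat runs from 53 to 37 bases before the start, and its parts are also counted as single half-sites. It is a match of letters only, and the gene-level counts do not tell the 4 RARB starts apart.

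The other sequences bear on whether reads of the 3 RARs can be told apart. The 90 coding bases at which they are most alike, from GENCODE 29 transcripts, lie in the part that encodes the zinc finger DNA-binding domain. Capitals mark the 17 positions at which the 3 are not identical.
RARA: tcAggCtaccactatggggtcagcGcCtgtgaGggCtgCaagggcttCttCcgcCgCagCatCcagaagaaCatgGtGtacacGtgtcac
RARB: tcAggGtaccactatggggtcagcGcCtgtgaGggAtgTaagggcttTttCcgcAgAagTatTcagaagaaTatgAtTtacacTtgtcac
RARG: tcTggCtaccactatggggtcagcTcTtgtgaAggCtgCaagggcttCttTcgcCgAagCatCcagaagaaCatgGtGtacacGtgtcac
RARB matched RARA at 78 of these 90 bases and RARG matched RARA at 84. Over their whole coding sequences, the longest run without a difference was 39 bases between RARA and RARG, 29 between RARA and RARB, and 18 between RARB and RARG. Between PLIN2 and PLIN3 it was 11 bases. No source used here states the read length.

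The labels were first set against the siRNA target and the cell type. By label, AEBP1 (ENSG00000106624) had 29.7, 27.7 and 48.3 CPM in AEBP1 siRNA 1, 2 and 3, and at 53.6, 48.7 and 25.1 CPM in scrambled 1, 2 and 3. Values in CPM are counts scaled by library size, as adjusted by the trimmed mean of M values. The estimate for AEBP1 was -0.27 on the log2 scale (SE 0.31). Replicate 3 of both groups went against its label, and every direction below is that of the labels. Totals ran from 34433510 to 49432960 counts. Of 19 stellate cell markers 13 passed the filter on low counts and 0 were called, with VIM the most abundant at 553 FPKM (fragments scaled to gene length and library size). DES and GFAP, filament genes of this list, had at most 9 and 17 counts in any library, and ACTA2, also listed, at most 199. Of the other cell types, the hepatocyte list summed to between 9.35 and 15.1 FPKM in the AEBP1 siRNA libraries. In the scrambled ones it summed to between 12.5 and 14.9 FPKM. CPS1, with a mean of 9.59 FPKM, and SERPINA1, with 3.04 FPKM, led it, while APOB, TTR and FGB were at 0. Adipocyte markers, which include droplet genes, summed to between 4.44 and 4.84 FPKM against 4.53 to 5.37 FPKM. LIPE, with a mean of 3.59 FPKM, led them, while ADIPOQ, LEP and FABP4 were at 0. Epithelial markers, led by KRT18, summed to between 98.8 and 141 FPKM against 98.97 to 107 FPKM, leukocyte markers to between 10.7 and 12.4 FPKM against 9.19 to 11.4 FPKM, and endothelial markers to between 0.231 and 0.364 FPKM against 0.400 to 0.430 FPKM. The part of other cells in the results was not tested. In such bulk RNA, fewer cells of a type and less RNA per cell cannot be told apart.

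No gene of the 9 passed the test between the labelled groups. LRAT had no counts, and of the 8 genes that passed the filter 0 were called higher and 0 lower at an adjusted p under 0.05 by the quasi-likelihood test of edgeR. Among all 16250 genes tested, 0.00615% were called higher and 0% lower in the AEBP1 siRNA libraries. An unadjusted p under 0.05 was reached by 0 of the 8 and by 1.33% of all genes, and the smallest among the 8 was 0.325, for RARA. DESeq2 also called 0 of the 8, beside 0.0123% of all genes higher and 0.0246% lower, and limma-voom called 0, beside 0.00615% in each direction. With a block for the replicate number 0 were called, beside 0.0123% higher and 0% lower. Groups that did not overlap were found for 0 of the 8 and for 5.93% of all genes (3.03% higher and 2.9% lower). The median log2 fold change was 0.07 over the 8 genes, 5 of which had estimates above 0, and -0.0023 over all genes tested.

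The levels per length had the same order in every library. By deposited FPKM, PLIN2 was the most abundant, at 33.0 to 44.3 over the 6 libraries, followed by RARA at 25.7 to 32.6 and PLIN3 at 16.4 to 21.0. Then came RXRA at 11.7 to 15.3 FPKM, RARG at 8.53 to 11.1, ALDH1A3 at 5.76 to 6.77 and DGAT1 at 3.55 to 4.39. RARB stood at 0.183 to 0.411 FPKM and LRAT at 0. No 2 neighbours in this order had ranges that overlapped. Within a library, the neighbours closest in ratio were RXRA at 11.7 FPKM and RARG at 11.1, in AEBP1 siRNA 1. Among the genes tested, the mean of PLIN2 lay at percentile 86.9 and that of RARB at percentile 9.41.

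**Figure D1:**
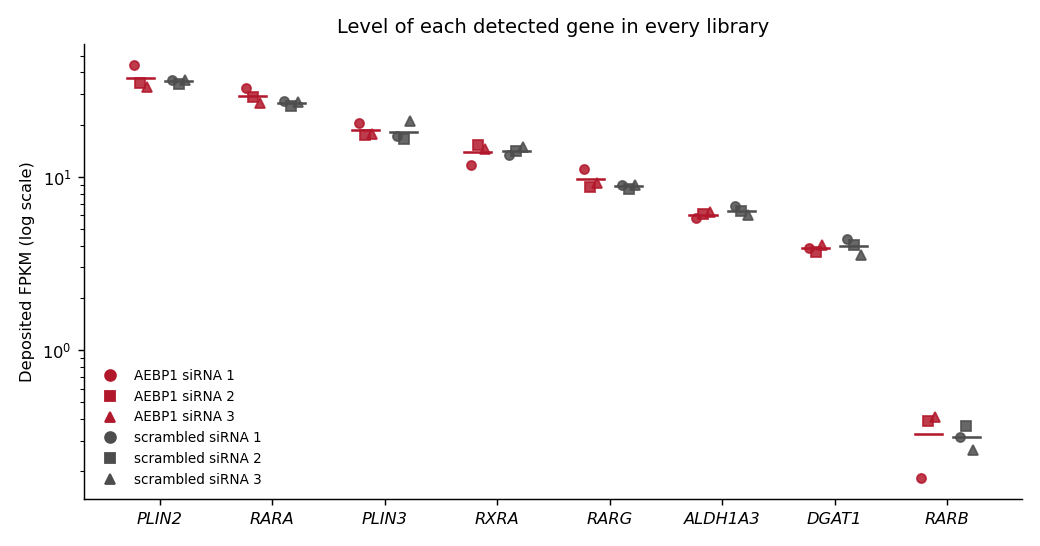
Deposited FPKM of the 8 detected genes (log axis) in each library, with AEBP1 siRNA in red on the left and scrambled siRNA in grey on the right of each pair, and bars at group means. The order from PLIN2 to RARB is the same in all 6 libraries, and the 2 groups overlap for each gene.

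LRAT (ENSG00000121207), the enzyme that stores retinol as ester, was listed with 0 counts in each of the 6 libraries. A count of 0 allows up to 3 counts as a one-sided 95% limit, or 0.0610 to 0.0863 CPM depending on the library, and the two-sided exact Poisson limit is 3.69 counts. Both cover counting error only. No fold can be given. Its relatives in uptake and binding differed in level. STRA6, a retinol importer, had 33 counts over all 6 libraries, and CRABP1, a carrier of retinoic acid, had 0. CRABP2, the other carrier of retinoic acid, averaged 9.74 FPKM in the AEBP1 siRNA libraries and 9.08 in the scrambled ones. These relatives were named after their values had been seen, as were those of the other families below, except where they were among the most abundant of a pathway list.

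ALDH1A3 (ENSG00000184254) oxidises retinal to retinoic acid. It was at 25.2, 26.6 and 27.9 CPM in AEBP1 siRNA 1, 2 and 3, and at 30.1, 27.98 and 26.2 CPM in scrambled 1, 2 and 3. Scrambled 1 was the highest and AEBP1 siRNA 1 the lowest, and the middle libraries were mixed. With an edgeR adjusted p of 0.991, the estimate was -0.08 on the log2 scale (SE 0.11), and its 95% interval ran from -0.33 to 0.17. ALDH1A3 was the most abundant of the 3 ALDH1A enzymes per length. ALDH1A2 was at 0.361 to 0.496 FPKM, and ALDH1A1 had at most 8 counts in any library. On the side of clearance, CYP26B1, which degrades retinoic acid, was at 0.684 to 1.54 FPKM, and CYP26A1, a gene that retinoic acid induces in many cells, had 4 to 12 counts.

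RARA was the main retinoic acid receptor by RNA per length, and RARB the least. RARA (ENSG00000131759) was at 78.5, 67.6 and 62.1 CPM in AEBP1 siRNA 1, 2 and 3, and at 64.1, 58.3 and 68.7 CPM in scrambled 1, 2 and 3. AEBP1 siRNA 1 was the highest and scrambled 2 the lowest, with the others between. This gave a log2 fold change of 0.12 (SE 0.12) with a 95% interval from -0.15 to 0.39 and an edgeR adjusted p of 0.991. RARG (ENSG00000172819), which is best known from skin, was at 35.7, 27.4 and 28.3 CPM in AEBP1 siRNA 1, 2 and 3, and at 29.02, 27.8 and 28.4 CPM in scrambled 1, 2 and 3. Besides AEBP1 siRNA 1, the 5 libraries lay close together. The estimate was 0.10 (SE 0.13), between 95% bounds of -0.19 and 0.39.

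RARB (ENSG00000077092), the receptor with the repeat shown above, was the scarcest that was detected. It had 22, 46 and 60 counts in AEBP1 siRNA 1, 2 and 3, and 46, 50 and 33 counts in scrambled 1, 2 and 3. The exact Poisson interval of the 22 counts was 13.8 to 33.3 and that of the 60 counts 45.8 to 77.2, so libraries of the same label differed by more than counting error. In CPM these were 0.633, 1.22 and 1.45 against 1.12, 1.02 and 0.753. The log2 fold change was 0.20 with a wide 95% interval of -0.70 to 1.10. Of the RAR total in FPKM, RARA made up 74.5% ± 1.24 in the AEBP1 siRNA libraries and 74.5% ± 0.251 in the scrambled ones (SD, n = 3 each). The share of RARG was 24.6% ± 1.31 and 24.6% ± 0.228, and that of RARB 0.860% ± 0.387 and 0.886% ± 0.159, in the same order of groups.

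RXRA (ENSG00000186350) is a partner of the RARs and of several other nuclear receptors. It was at 24.1, 31.3 and 30.4 CPM in AEBP1 siRNA 1, 2 and 3, and at 28.02, 29.2 and 30.8 CPM in scrambled 1, 2 and 3. AEBP1 siRNA 1 was the lowest and AEBP1 siRNA 2 the highest, so both ends of the range carried the same label. The estimate was -0.04 (SE 0.13) on the log2 scale, between 95% bounds of -0.33 and 0.26. Per length RXRB was above it, at 19.9 to 22.8 FPKM, while RXRG had at most 4 counts in any library. The ratio of RXRA to the summed RARs, in FPKM, was 0.268, 0.404 and 0.397 in AEBP1 siRNA 1, 2 and 3, and 0.365, 0.405 and 0.412 in scrambled 1, 2 and 3. AEBP1 siRNA 1, where the summed RARs were highest and RXRA lowest, stood apart.

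**Figure D2:**
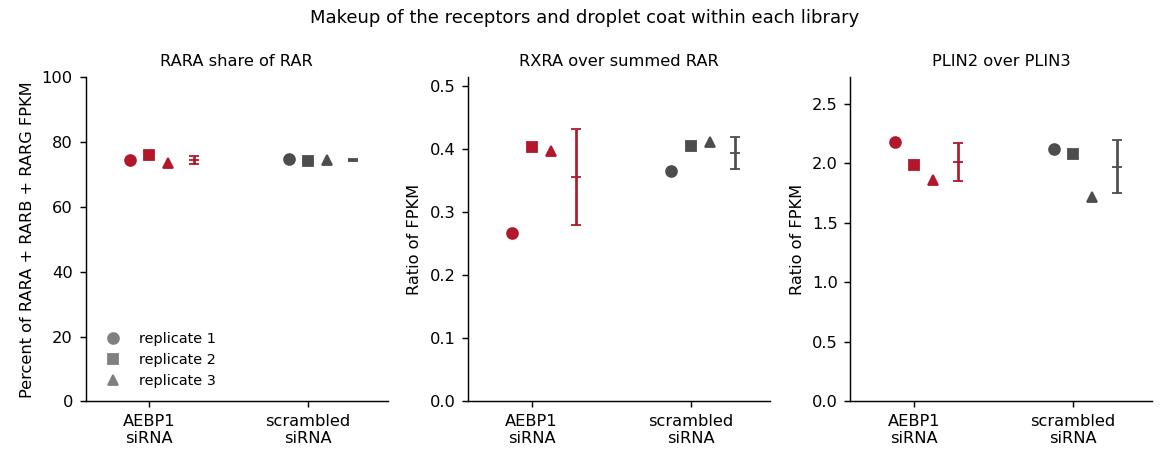
RARA as a percentage of the FPKM of RARA, RARB and RARG (left), the ratio of RXRA to their sum (middle) and the ratio of PLIN2 to PLIN3 (right), for AEBP1 siRNA libraries in red and scrambled libraries in grey, with symbols for replicates and mean ± SD beside them. The RARA share lies between 73.4% and 75.9% in all 6 libraries, and the ratio of RXRA is 0.268 in AEBP1 siRNA 1.

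DGAT1 (ENSG00000185000) performs the last step of triglyceride synthesis and can also esterify retinol. It was at 16.1, 15.1 and 17.2 CPM in AEBP1 siRNA 1, 2 and 3, and at 18.5, 16.9 and 14.9 CPM in scrambled 1, 2 and 3. The highest and the lowest value were both from scrambled libraries. The groups differed by a log2 fold change of -0.06 (SE 0.14), with a 95% interval from -0.37 to 0.26 and an edgeR adjusted p of 0.991. DGAT2, an unrelated enzyme that carries out the same step, was more abundant per length, at 12.8 to 19.1 FPKM.

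PLIN2 (ENSG00000147872) coats lipid droplets in most cells that have them. It was at 97.2, 75.5 and 74.1 CPM in AEBP1 siRNA 1, 2 and 3, and at 81.1, 75.6 and 79.5 CPM in scrambled 1, 2 and 3. AEBP1 siRNA 1 was the highest, and the other 2 libraries of its label were the lowest of the 6. On the log2 scale the estimate was 0.06 (SE 0.12), its 95% interval ran from -0.22 to 0.34, and the edgeR adjusted p was 0.991. PLIN1 and PLIN4, perilipins of fat cells, were at 0.121 to 0.322 and 0.0858 to 0.224 FPKM, and PLIN5, known from oxidative tissues, had at most 15 counts.

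PLIN3 (ENSG00000105355), a perilipin that moves between the cytosol and young droplets, was at 51.8, 44.3 and 41.5 CPM in AEBP1 siRNA 1, 2 and 3, and at 44.7, 42.4 and 42.6 CPM in scrambled 1, 2 and 3. By CPM, AEBP1 siRNA 1 was again the highest and the other 5 were close together, with a log2 fold change of 0.08 (SE 0.11, 95% interval -0.16 to 0.33). The deposited FPKM gave another order, at 20.4, 17.5 and 17.7 in AEBP1 siRNA 1, 2 and 3, and 17.2, 16.4 and 21.0 in scrambled 1, 2 and 3. Scrambled 3 was thus the highest by FPKM and below 3 other libraries by CPM. Its FPKM per CPM, relative to the median gene of that library and to the median library for PLIN3, was 1.26, and 1.18% of all genes tested had a ratio at least as high in scrambled 3. AEBP1 siRNA 3 had 1.10, and the other 4 libraries 0.986 to 1.01. For PLIN2, RXRA, ALDH1A3 and DGAT1 this ratio was 0.997 to 1.02 in all 6 libraries, for RARG it was 0.979 to 1.055, and for RARA 0.917 in scrambled 3 and 0.978 to 1.034 in the others. For RARB, at few counts, it was 1.19 in scrambled 2 and 1.17 in scrambled 3 and 0.938 to 1.04 in the others, which bears on its shares in FPKM. The cause was not tested, and no source used here states how a gene's length was set for FPKM.

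The library labelled AEBP1 siRNA 1 held the highest value of 4 of the 8 genes (RARA, RARG, PLIN2 and PLIN3) and the lowest of 3 (RARB, RXRA and ALDH1A3). It was the highest or lowest library for 64.7% of all genes tested, where the other 5 libraries had 23.4% to 33.6%. On the first principal component of all genes tested, with 34.8% of the variance, it scored -65.9 and the others 5.74 to 17.3. So 7 of the 8 genes had an extreme value in this library, as most other genes did, and DGAT1 did not. Without it the log2 fold changes were -0.03 for RARG, -0.07 for PLIN2, -0.01 for PLIN3 and 0.07 for RXRA, each turned in sign. Those of RARA and RARB were 0.03 and 0.47, ALDH1A3 and DGAT1 stayed below 0, and again 0 of the 8 were called, beside 0.006% of all genes higher and 0% lower.

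**Figure D3:**
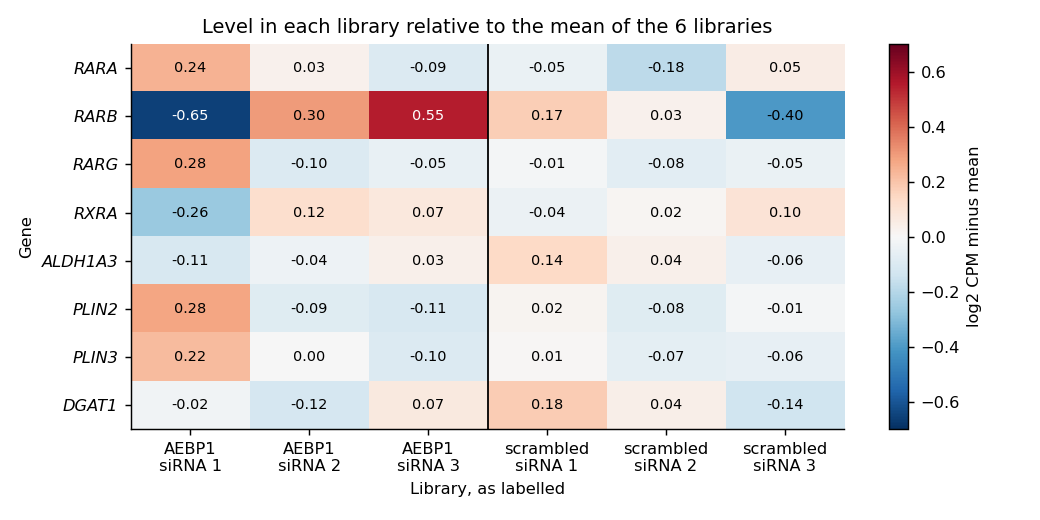
log2 CPM of each gene in each library minus that gene's mean over the 6 libraries, with AEBP1 siRNA libraries left and scrambled libraries right of the black line. The column of AEBP1 siRNA 1 holds deviations of 0.22 to 0.28 for RARA, RARG, PLIN2 and PLIN3 and of -0.26 for RXRA, and RARB varies most.

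The intervals bound the difference between the labelled groups, gene by gene, and not an effect of AEBP1 loss. AEBP1 itself had a 95% interval of -0.97 to 0.43 on the log2 scale. For the 7 genes tested besides RARB, the 95% intervals of the fold lay between 0.776 and 1.31, and for RARB between 0.617 and 2.14. These bounds rest on the labels, which AEBP1 contradicts in 2 of the 6 libraries. With replicate 3 of both groups left out, 0 of the 8 genes were called, beside 0% of all genes higher and 0.00614% lower. With AEBP1 siRNA 1 left out as well, 0 of the 8 were called, beside 0.651% of all genes higher and 0.809% lower, in a fit with a single library labelled AEBP1 siRNA that is assumed to vary like the scrambled ones.

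**Figure D4:**
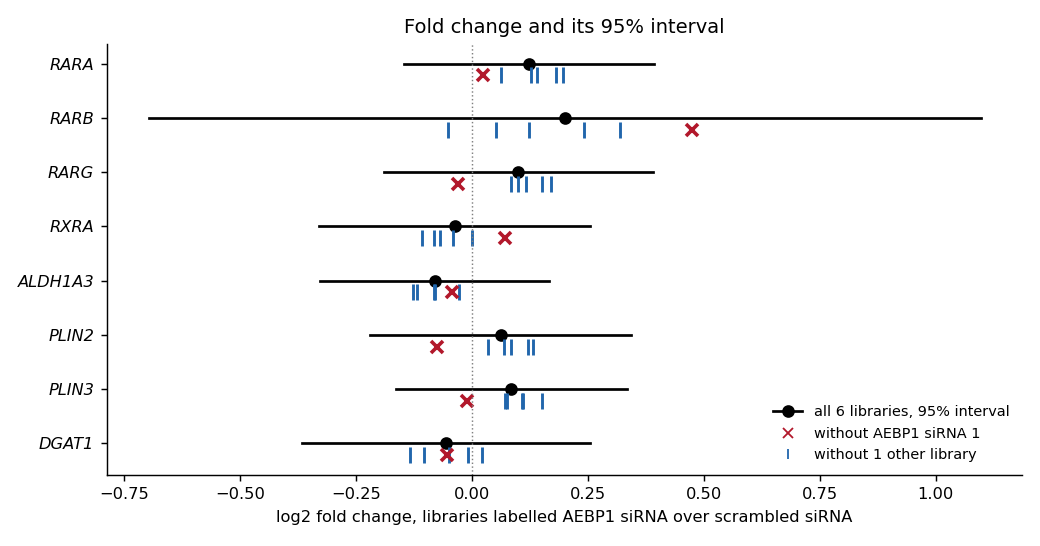
log2 fold changes of the 8 genes between libraries labelled AEBP1 siRNA and scrambled siRNA (black points) with 95% intervals (black lines), and below each the estimates with 1 library left out, where a red cross marks the fit without AEBP1 siRNA 1. Every interval spans 0, and the red crosses of RARG, PLIN2, PLIN3 and RXRA lie across 0 from their black points.

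Around these genes, 8 lists of the retinoid and droplet pathways held 137 other genes, of which 92 passed the filter. Of these 92, 0 were called higher and 0 lower by edgeR, 0 had an unadjusted p under 0.05, and the smallest p was 0.101. DESeq2 and limma-voom called 0 as well. Estimates were above 0 for 41 and below 0 for 51, with a median of -0.02. The groups did not overlap for 4 of the 92 (4.35%), namely HILPDA, GPAT2 and FABP3 with higher and VDR with lower values in the AEBP1 siRNA libraries, beside 5.93% of all genes.

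Of genes that take up and bind retinoids, 5 of 13 were tested, with 3 estimates above 0 and 2 below and a median log2 fold change of 0.03. The most abundant per length were SCARB1, a lipoprotein receptor, at 14.1 and 13.7 FPKM in the AEBP1 siRNA and scrambled libraries, and RBP7, a retinol carrier, at 13.0 and 11.6. The smallest p was that of RBP4, the retinol carrier of plasma, whose log2 fold change was -0.36 (SE 0.58). RBP4 had at most 15 counts in any library, and its log2 fold change was -0.03 without AEBP1 siRNA 2. Of the enzymes that interconvert retinol and retinal, 9 of 22 were tested, 5 above 0 and 4 below, with a median of 0.0048. ADH5 averaged 54.2 and 55.0 FPKM, RDH11, which reduces retinal, 39.5 and 39.4, and DHRS7 40.1 and 34.8. RDH5 had the smallest p of this list, with a log2 fold change of 0.79 (SE 0.48), and was at 1.76, 1.09 and 1.38 CPM in AEBP1 siRNA 1, 2 and 3 against 0.560, 0.447 and 1.44 CPM in scrambled 1, 2 and 3. Its highest scrambled library, replicate 3, lay among the AEBP1 siRNA values.

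Genes of retinoic acid synthesis and clearance numbered 5 tested of 8, with 2 above 0, 3 below and a median of -0.06. POR, the electron donor of the P450 enzymes, averaged 35.8 and 32.3 FPKM, and CYP1B1, which had the smallest p, a log2 fold change of -0.32 (SE 0.23). Of receptor partners and coregulators 17 of 18 were tested, 7 above 0 and 10 below, with a median of -0.09. MED1, a subunit of the Mediator complex, averaged 37.2 and 42.0 FPKM, and NR1H2, an oxysterol receptor, 24.9 and 23.3. MED1 was at 24.8 FPKM in AEBP1 siRNA 1 and at 40.5 to 44.6 FPKM in the other libraries of both labels. VDR, the vitamin D receptor and a partner of RXR, had the smallest p, at 39.6, 45.2 and 44.3 CPM in AEBP1 siRNA 1, 2 and 3 against 46.5, 49.4 and 46.9 CPM in scrambled 1, 2 and 3. The estimate was -0.15 on the log2 scale (SE 0.095), and the edgeR adjusted p was 0.991.

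Genes known to respond to retinoic acid gave 11 tested of 18, with 6 above 0, 5 below and a median of 0.04. NRIP1, a corepressor, averaged 12.1 and 13.6 FPKM, MEIS2, a homeobox factor, 6.93 and 7.93, and RARRES3, which had the smallest p, a log2 fold change of -0.34 (SE 0.21). For droplet coat and turnover 18 of 26 were tested, 6 above 0 and 12 below, with a median of -0.03. G0S2, an inhibitor of the triglyceride lipase, averaged 81.2 and 80.6 FPKM, AUP1 85.5 and 74.3, and PNPLA2, that lipase, 58.5 and 55.7. AUP1 also had the smallest p, with a log2 fold change of 0.19 (SE 0.13). It was at 188.5 CPM in AEBP1 siRNA 1 and at 132.2 to 141.4 CPM in the other libraries. Without AEBP1 siRNA 1 its log2 fold change was 0.03.

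Neutral lipid synthesis gave 14 tested of 18, with 6 above 0, 8 below and a median of -0.04. AGPAT2, which makes phosphatidic acid, averaged 86.1 and 76.3 FPKM, LPIN2 34.5 and 36.6 and AGPAT1 32.5 and 32, while GPAT2 had the smallest p and a log2 fold change of 0.32 (SE 0.22). Of fatty acid uptake, activation and synthesis 17 of 21 were tested, 8 above 0 and 9 below, with a median of -0.02. ACLY, which makes cytosolic acetyl-CoA, averaged 52.7 and 55.0 FPKM, ACSL4 44.1 and 44.3 and ACSL3, an acyl-CoA synthetase of droplets, 32 and 33.5. FABP3 had the smallest p of all 92 and a log2 fold change of 1.02 (SE 0.55) at 0.690, 0.798 and 0.484 CPM in AEBP1 siRNA 1, 2 and 3, against 0.122, 0.406 and 0.434 CPM in scrambled 1, 2 and 3. It had at most 30 counts in any library. With 1 library left out its log2 fold change ran from 0.64, without scrambled 1, to 1.29, without scrambled 3.

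**Figure D5:**
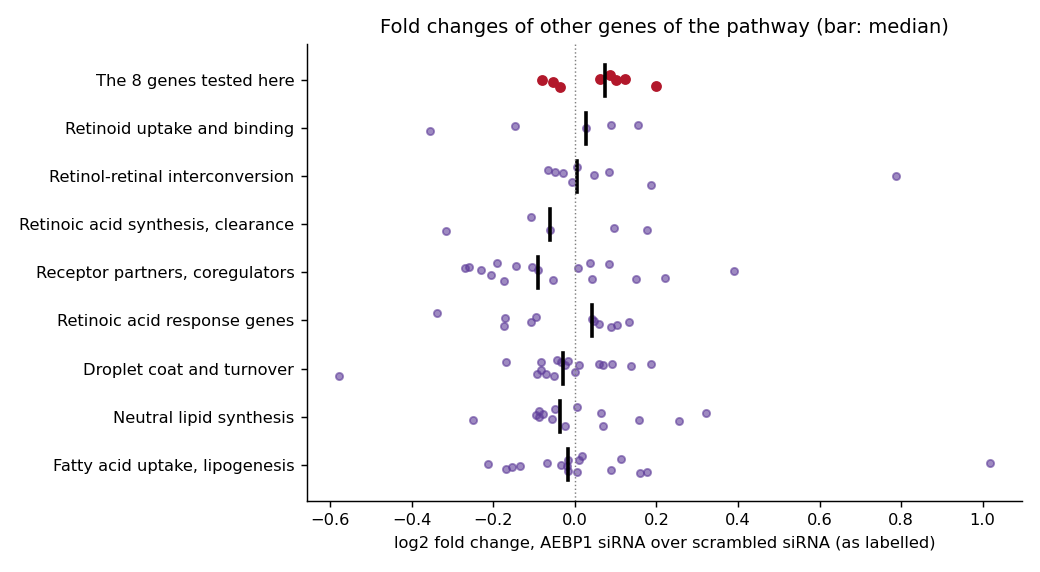
log2 fold changes between libraries labelled AEBP1 siRNA and scrambled siRNA for the 8 genes tested here (red) and for the tested genes of 8 pathway lists (purple), 1 point per gene, with a black bar at the median of each row. The medians lie between -0.09 and 0.07, and the points farthest from 0 are FABP3, RDH5 and PLIN1, all of low level.

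Among the genes of the 8 whose mean reached 5 CPM, RARA and PLIN2 varied most over the libraries, with SDs of 0.15 and 0.14 on the log2 scale. The genes whose centred log2 CPM differed least from that of RARA, of 11581 searched, were UTP18, SET and AP3S1, with root mean square differences of 0.022, 0.023 and 0.024 over 6 libraries. Those nearest to PLIN2 were EGFLAM, SUB1 and AIFM1, at 0.015, 0.017 and 0.018. UTP18 was at 137, 122 and 111 CPM in AEBP1 siRNA 1, 2 and 3, against 116, 106 and 121 CPM in scrambled 1, 2 and 3. EGFLAM was at 35.8, 27.7 and 27.1 CPM against 29.1, 28.04 and 29.2 CPM. In each of these 6 genes AEBP1 siRNA 1 was the highest library.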

How the data were processed

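The authors deposited raw counts and FPKM per gene in 1 table, per the file headers, and the submitters' processing notes name build hg19. No aligner, counter, annotation, strand setting or filter is given in the sources used here. Deposited counts from 6 libraries were filtered with filterByExpr, scaled by trimmed mean of M values and tested by quasi-likelihood in edgeR 4.0.16 (R 4.3.3). The model had the group alone, and p-values were adjusted by Benjamini-Hochberg across 16250 genes. CPM are deposited counts scaled to library size as adjusted by the trimmed mean of M values, used within a gene. The deposited FPKM values were used for levels between genes. Standard errors were taken from the fold change and its F statistic. DESeq2 1.42.0 and limma 3.58.1 were alternatives, and the test was first checked on simulated counts. Changes were planted there only in genes of at least 5 CPM, with no outlying or mislabelled library. The check thus does not bear on RARB or on changes as small as those estimated here. Every pair of libraries differed beyond counting noise (chi-square over its degrees of freedom 7.78 or more), so none was counted as a copy. The closest pairs crossed the labels, with AEBP1 siRNA 2 and scrambled 3 at 7.78 and AEBP1 siRNA 3 and scrambled 2 at 9.16. With the same label, scrambled 1 and 2 were at 14.0, AEBP1 siRNA 2 and 3 at 22.6 and scrambled 2 and 3 at 25.8. The cause was not tested. A further 17 lines without values were left out, and 27 symbols turned into dates were restored by gene ID. The 9 genes and the pathway and marker lists were chosen with earlier results of these data known, and 1 listed name, RBPR2, matched no row. Named besides the 9 genes and AEBP1 were called genes of each list or else the 3 with the highest FPKM and the 1 with the smallest p, and the 3 genes nearest in pattern to RARA and PLIN2, and some items of the lists are not reported here. Promoter windows are RefSeq's on GRCh38.p14, and coding sequences GENCODE 29's. Neither build was joined to coordinates of the files.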

Additional observations from a re-analysis of the deposited data

How the results depend on the processing

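Of the 8 genes tested, 0 were called higher and 0 lower under every alternative run, and the smallest adjusted p of any of them was 0.613. Added after the data had been seen were limma on log2(FPKM + 1) and the fits without replicate 3 of both groups, with and without AEBP1 siRNA 1. RARB was not tested under the filter of at least 5 CPM. Same-numbered libraries, centred within each labelled group, had correlations of 0.0961, -0.00776 and -0.102 for replicates 1, 2 and 3. No pairing by replicate number was seen. The check cannot exclude it, because the centring rests on labels that AEBP1 contradicts in replicate 3. The replicate block gave 2 genes called higher and 0 lower. Against 1 gene called higher and 0 lower in all, no filter gave 2 and 1, DESeq2 2 and 4, limma-voom 1 and 1, leaving out replicate 3 of both groups 0 and 1, leaving out these and AEBP1 siRNA 1 111 and 138, and single libraries left out 0 to 2 and 0. In the fit without replicate 3 and AEBP1 siRNA 1, which has a single library on one side, AEBP1 was at -0.884. This is no test of AEBP1, because replicate 3 was left out for its AEBP1 values. AGPAT3, a pathway gene at -0.25 (SE 0.28) with all 6 libraries, was at -0.73 in this reduced fit. It was picked out for its value in this same fit, which is thus no test of it either. There RARG was at -0.052, RXRA at 0.13, PLIN2 at -0.054 and CYP1B1 at 0.10, each turned in sign, as was RARB at -0.20 without replicate 3 of both groups. Leaving out 1 library at a time gave log2 fold changes of -0.0505 to 0.475 for RARB, -0.0291 to 0.171 for RARG, -0.108 to 0.0723 for RXRA, -0.0747 to 0.131 for PLIN2, -0.0113 to 0.151 for PLIN3, -0.134 to 0.0223 for DGAT1 and -0.57 to -0.07 for AEBP1. The turns came without AEBP1 siRNA 1 for RARG, RXRA, PLIN2 and PLIN3, and also without scrambled 3 for RXRA, without scrambled 1 for DGAT1 and without AEBP1 siRNA 3 for RARB. For these the cause was not tested. Depth limits RARB, at 22 to 60 counts per library, and LRAT, at 0.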

Other observations

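DGAT1 and ALDH1A3 came close to the order of AEBP1 itself over the 6 libraries, which was noticed after the values were seen and was not tested. AEBP1 was at 53.6 CPM in scrambled 1, 48.7 in scrambled 2, 48.3 in AEBP1 siRNA 3, 29.7 in AEBP1 siRNA 1, 27.7 in AEBP1 siRNA 2 and 25.1 in scrambled 3. DGAT1, again from high to low, was at 18.5 CPM in scrambled 1, 17.2 in AEBP1 siRNA 3, 16.9 in scrambled 2, 16.1 in AEBP1 siRNA 1, 15.1 in AEBP1 siRNA 2 and 14.9 in scrambled 3. ALDH1A3, the maker of retinoic acid, was at 30.1 CPM in scrambled 1, 27.98 in scrambled 2, 27.9 in AEBP1 siRNA 3, 26.6 in AEBP1 siRNA 2, 26.2 in scrambled 3 and 25.2 in AEBP1 siRNA 1. These sequences of libraries begin with the same 3 names. RARA ended with these 3 libraries, at 64.1 CPM in scrambled 1, 62.1 in AEBP1 siRNA 3 and 58.3 in scrambled 2. The next value above them was 67.6 CPM in AEBP1 siRNA 2, with counting errors of 1.98% there and 1.95% in scrambled 1. RARB, RARG, RXRA, PLIN2 and PLIN3 did neither. The share of all genes tested that begin or end with these 3 libraries was not counted. The orders are thus not known to be particular to these genes. The same 3 libraries also scored highest on the second principal component of all genes tested, with 21.4% of the variance. The scores were 30.0 for scrambled 1, 17.8 for AEBP1 siRNA 3, 14.3 for scrambled 2, -1.99 for AEBP1 siRNA 1, -26.0 for scrambled 3 and -34.1 for AEBP1 siRNA 2.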
